A study of Homo sapiens with 2 samples.

Results

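The genes described here are a set of 37 that encode aminoacyl-tRNA synthetases and their scaffold proteins: 19 cytosolic synthetase genes, 16 mitochondrial ones, and AIMP1 and AIMP2. They were chosen by name, and a gene was taken as measured from probe sets annotated to it alone, which held for 33 of the 37, out of 19775 genes on the array. Signals came from DLD-1, an established line of human colon carcinoma, stably transfected so that wild-type p53 is made when tetracycline is taken away (a tet-off system). The p53 on group had been without tetracycline for 9 h, and the p53 off group was kept in it. Both groups carry the construct, and each was measured on 1 Affymetrix array. With 1 array per group no ratio below has a replicate check or a test.

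An aminoacyl-tRNA synthetase joins an amino acid to its tRNA, which fixes the meaning of the genetic code before the ribosome is reached. Human cells use separate nuclear genes for the enzymes of the cytosol and of the mitochondrion for most amino acids, and the names of the mitochondrial ones end in 2. GARS1 and KARS1, for glycine and lysine, serve both compartments. Several cytosolic enzymes sit together in a multisynthetase complex held by AIMP1 and AIMP2, and many cytosolic synthetase genes are known targets of ATF4, the transcription factor of the amino acid response.

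The values are MAS5 signals, linear and without a unit, and both deposited arrays have the same trimmed mean. A signal under 112.4, the median of all signals, was set to that floor, each gene was read on its brightest probe set, and the ratio is that of p53 on over p53 off. All 33 genes with a probe set of their own were above the floor on at least 1 array. Over the 13915 measured genes of the array the log2 ratio had a median of 0.0035. Repeat readings exist only as further probe sets of the same gene, which lay a median of 0.56 (log2) away from the brightest. The arrays differed in their controls: for beta-actin the ratio of 3' to 5' signal was 7.29 with p53 on and 1.37 with p53 off, and 18 hybridization spike-in probe sets were a median of 1.89 times brighter with p53 on. The part of these differences in the ratios was not tested. Of 11 epithelial and intestinal markers, 9 were measured. The summed signal of all 11 was 174880 with p53 on and 107780 with p53 off. KRT20 and CDX1 were under the floor on both arrays. Markers of leukocytes, fibroblasts and endothelium were dim. Summed over those with a probe set, signals were 721.82, 820.62 and 611.42 with p53 on and 314.51, 375.91 and 233.24 with p53 off. PTPRC, CD3E, CD14 and COL1A1 were among those under the floor on both arrays. Above it on at least 1 array were 2 of 6 leukocyte, 4 of 6 fibroblast and 3 of 5 endothelial markers. All of these but COL1A2 were higher with p53 on. PECAM1 alone was above the floor on both arrays, at 224.3 with p53 on and 121.1 with p53 off.

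The cytosolic synthetases were spread to both sides with p53 on, and the mitochondrial ones were lower. Of 17 measured cytosolic genes, 6 were at least 1.5-fold higher (25.9% of all measured genes were) and 3 were lower by that much (25.9% of all), while 8 lay between, with a median of 0.26 and a range from -3.81 to 1.73. Of 15 measured mitochondrial genes, 0 were higher by 1.5-fold and 8 were lower, with a median of -0.60 and a range from -1.10 to 0.01. A log2 ratio below 0 was found in 7 of the 17 cytosolic and 14 of the 15 mitochondrial genes, and in 49.8% of all measured genes. The difference between the medians, cytosolic minus mitochondrial, was 0.86. Centring and spike-in scaling shift both groups alike, so they could not change it, and other floors and the pseudocount left it at 0.86. It was 0.73 after quantile normalization and 0.51 after loess. On the mean, lowest and highest probe set it was 0.60, 0.59 and 0.73. Scaling to the spike-ins would move the median gene to -0.80, so directions here are relative to the median gene. In RNA from a whole culture, fewer cells with a transcript and less of it per cell cannot be told apart.

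**Figure D1:**
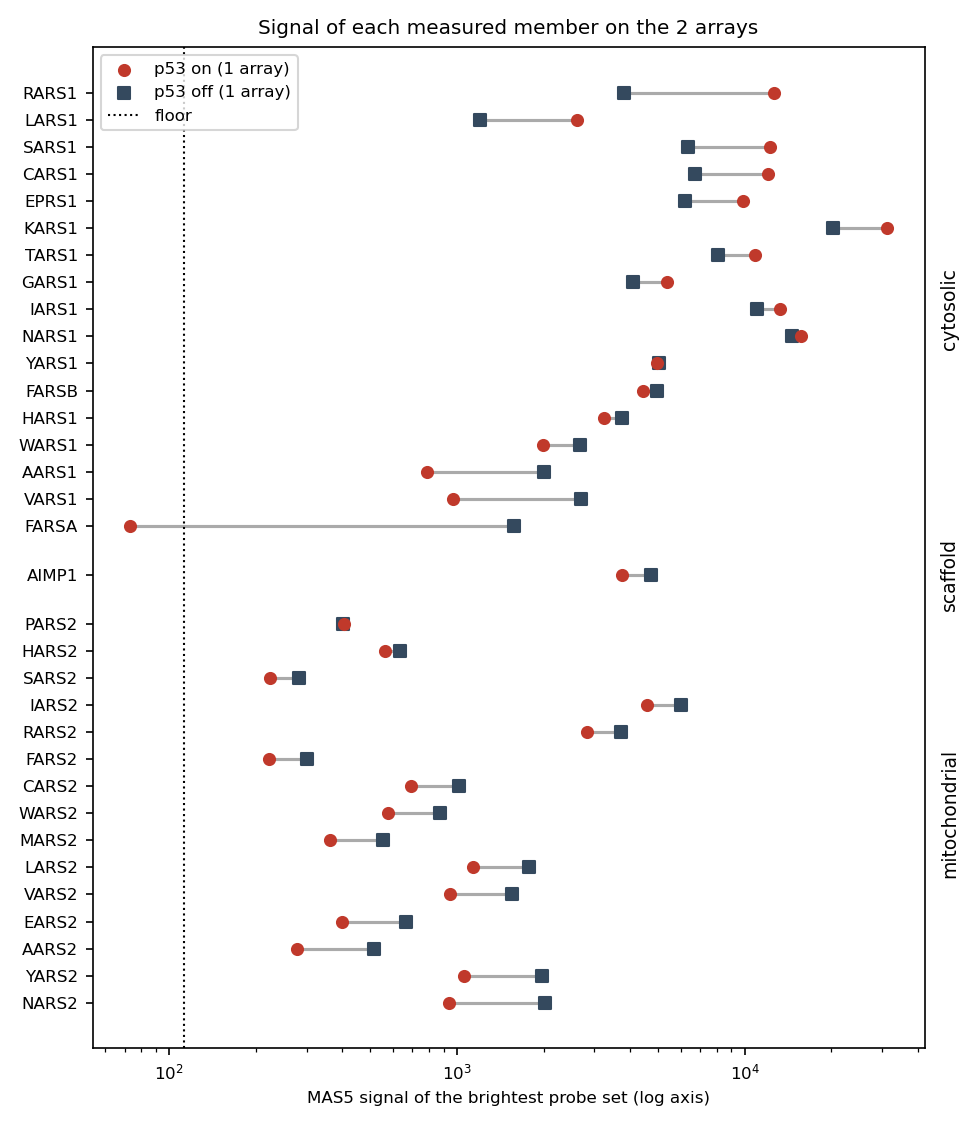
MAS5 signal (log axis) of the brightest probe set of the 33 measured genes on the p53 on array (circles) and the p53 off array (squares), with the floor as a dotted line. The cytosolic genes run from RARS1, higher with p53 on, to FARSA, whose p53 on signal was under the floor, and in 14 of 15 mitochondrial genes the p53 on signal was the lower one.

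RARS1, the cytosolic arginyl-tRNA synthetase and a member of the complex, had the largest ratio of the set. Its probe set read 12656 with p53 on and 3812.6 with p53 off, which is 3.32-fold higher. It was the only probe set for RARS1, so no second reading exists. SARS1, the cytosolic seryl-tRNA synthetase, read 12212 with p53 on and 6363.5 with p53 off, 1.92-fold higher. Its second probe set was 3.59-fold higher, at 2583.8 with p53 on and 720.02 with p53 off. SARS1 was the only cytosolic gene of the 10 with several measured probe sets that was at least 1.5-fold higher on all of them, which held for 11.3% of all such genes.

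For the other genes past 1.5-fold in that direction, further probe sets gave smaller ratios. LARS1, the leucyl-tRNA synthetase, which is also known as a leucine sensor for mTORC1, was 2.17-fold higher where it was brightest, at 2615.7 with p53 on and 1204.6 with p53 off. The name of this probe set (_x_at) marks sequence shared with other transcripts, and the other 3 probe sets for LARS1 had log2 ratios of 0.02 to 0.19. CARS1, for cysteine, read 12009 with p53 on and 6718.4 with p53 off, 1.79-fold higher, and its others were at 0.53 and 0.07 on the log2 scale. EPRS1, a fused enzyme for glutamate and proline, read 9868.4 with p53 on and 6217.3 with p53 off, 1.59-fold higher, but its other probe sets were at -0.20 and -0.07. KARS1 read 31184 with p53 on and 20214 with p53 off, 1.54-fold higher, with a second probe set at -0.16. Only RARS1 and SARS1 therefore stayed past 1.5-fold when each gene was read on its lowest probe set.

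FARSA, the alpha subunit of cytosolic phenylalanyl-tRNA synthetase, had the smallest ratio of the set. Its brighter probe set read 73.257 with p53 on, under the floor, and 1578.4 with p53 off, so it was at least 14-fold lower. Its other probe set read 359.21 with p53 on and 1003.0 with p53 off, 2.79-fold lower. FARSA was the only cytosolic gene at least 1.5-fold lower on all of several measured probe sets, as were 10.4% of all such genes. FARSB, the beta subunit that forms the same enzyme, differed little, at 4446.2 with p53 on and 4958.7 with p53 off, a log2 ratio of -0.16. Its second measured probe set was at -0.03, a bound. The enzyme is a tetramer of both subunits. Their brightest probe sets were at -3.81, a bound, and -0.16, but the 2 probe sets of FARSA also lay far apart, at -3.81 and -1.48.

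VARS1 and AARS1, the cytosolic enzymes for valine and alanine, were the other lower ones. VARS1 read 970.69 with p53 on and 2701.8 with p53 off, 2.78-fold lower. AARS1 read 785.48 with p53 on and 2009.7 with p53 off, 2.56-fold lower. Each had 1 measured probe set. In all, 2 cytosolic genes were at least 2-fold higher, as were 15.3% of all measured genes, and 3 at least 2-fold lower, as were 13.5%.

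The remaining 8 cytosolic genes were within 1.5-fold. TARS1, for threonine, had a log2 ratio of 0.43 and a second probe set at 1.05, a lower bound since its p53 off signal was under the floor. GARS1 was at 0.39, IARS1, for isoleucine, at 0.26 and NARS1, for asparagine, at 0.11. YARS1, for tyrosine, was at -0.02 and HARS1, for histidine, at -0.20. WARS1, the tryptophanyl-tRNA synthetase and a known interferon-gamma-induced gene, was at -0.44, with signals of 1985.7 with p53 on and 2686.2 with p53 off, and its second probe set was at -0.78.

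The cytosolic genes were also read by membership of the multisynthetase complex. All 5 measured enzymes of the complex, RARS1, LARS1, EPRS1, KARS1 and IARS1, had log2 ratios above 0 (2 of 5 after spike-in scaling and 3 of 5 on the lowest probe set), with a median of 0.67, and 4 of them were at least 1.5-fold higher, against 25.9% of all measured genes. Of the 12 cytosolic enzymes outside it, 2 were at least 1.5-fold higher and 3 were lower by that size (median -0.09). On the mean of all measured probe sets, the complex had 1 gene at least 1.5-fold higher, as were 22.6% of all measured genes. Its median was then 0.26, against 0.01 for the enzymes outside it. On the lowest probe set the medians were 0.02 in the complex and -0.09 outside it. LARS1, EPRS1 and IARS1 had only probe sets marked for shared sequence (_x_at or _s_at). Without such probe sets 2 measured enzymes of the complex were left, RARS1 and KARS1. Its other enzymes on the list, MARS1 and QARS1, had only probe sets that also name a microRNA gene, with brightest log2 ratios of -0.33 and -0.10. AIMP1, the scaffold measured, was at -0.33 on its brightest probe set (3759.9 with p53 on and 4718.4 with p53 off) and at -0.55 and 0.05 on the others. AIMP2 was not analysed here.

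**Figure D2:**
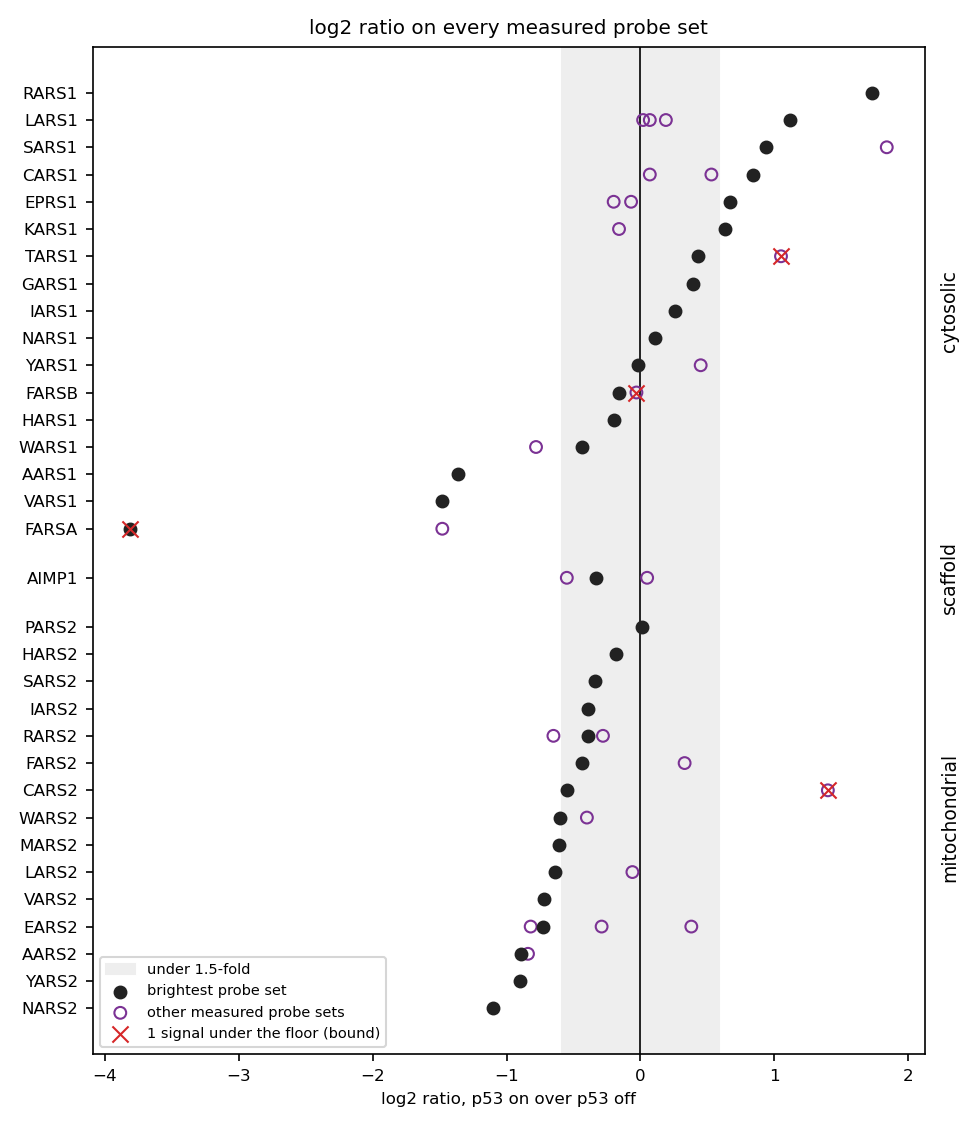
The log2 ratio of p53 on over p53 off for every measured probe set of each gene, with the brightest one filled, the others open and bounds crossed in red. The grey band holds ratios under 1.5-fold, and the other probe sets of LARS1, EPRS1 and KARS1 lie within it.

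The mitochondrial genes spanned a smaller range. NARS2, for asparagine, had the smallest ratio, at 937.21 with p53 on and 2015.0 with p53 off, 2.15-fold lower. YARS2, for tyrosine, read 1060.6 with p53 on and 1980.4 with p53 off, 1.87-fold lower. AARS2, for alanine, read 276.97 with p53 on and 514.72 with p53 off, 1.86-fold lower, and 1.79-fold lower on a second probe set. AARS2 was the only mitochondrial gene of the 7 with several measured probe sets that was at least 1.5-fold lower on all of them, as were 10.4% of all such genes.

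EARS2, the enzyme that charges both glutamate and glutamine tRNAs in mitochondria, read 398.99 with p53 on and 662.61 with p53 off, 1.66-fold lower. Of its 4 probe sets 3 were lower, and the dimmest had a log2 ratio of 0.38. VARS2, for valine, was 1.64-fold lower at 948.64 with p53 on and 1558.8 with p53 off. LARS2, for leucine, was 1.56-fold lower at 1134.9 with p53 on and 1773.5 with p53 off, but its second probe set was at -0.06. MARS2, for methionine, read 361.67 with p53 on and 551.53 with p53 off, and WARS2, for tryptophan, 576.92 with p53 on and 876.0 with p53 off, each 1.52-fold lower.

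The genes just short of 1.5-fold, a log2 ratio of -0.58, were CARS2 (cysteine) at -0.55, FARS2 (phenylalanine) at -0.44, RARS2 (arginine) and IARS2 (isoleucine) at -0.39 each. SARS2, for serine, was at -0.34 and HARS2, for histidine, at -0.18. PARS2, for proline, was the exception at 0.01, with 406.37 with p53 on and 403.17 with p53 off. CARS2 and FARS2 also had a probe set in the other direction, at 1.40 (a bound) and 0.33, whereas all 3 measured probe sets of RARS2 were lower. Over all measured probe sets, 13 of 31 for cytosolic genes (41.9%) and 21 of 25 for mitochondrial genes (84.0%) had a log2 ratio below 0, against 50.4% of all named measured probe sets. Among genes with several measured probe sets, all had 1 sign in 7 of 10 cytosolic and 4 of 7 mitochondrial genes, and in 58.6% of all genes. The number of mitochondrial genes past 1.5-fold in the lower direction rested on small margins. It was 3 of 15 after loess on mean signal, where 23.1% of all measured genes were lower by that much. On the mean of all probe sets it was 5 of 15, against 23.5% of all measured genes.

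Enzymes for the same amino acid were then set side by side. In 15 measured pairs, in which EPRS1 and FARS2 each stand 2 times, the cytosolic gene had the higher log2 ratio in 11 and the lower in 4, with a median difference of 0.66. The median difference was 0.12 on the mean of all measured probe sets and 0.29 on the highest probe set. The largest differences in favour of the cytosolic gene were 2.12 for arginine (RARS1 against RARS2), 1.76 for leucine and 1.40 for glutamate. The pairs in which the cytosolic gene was lower were FARSA with FARS2 (-3.38, a bound), VARS1 with VARS2 (-0.76), AARS1 with AARS2 (-0.46) and HARS1 with HARS2 (-0.03). For alanine and valine both genes of the pair were at least 1.5-fold lower.

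**Figure D3:**
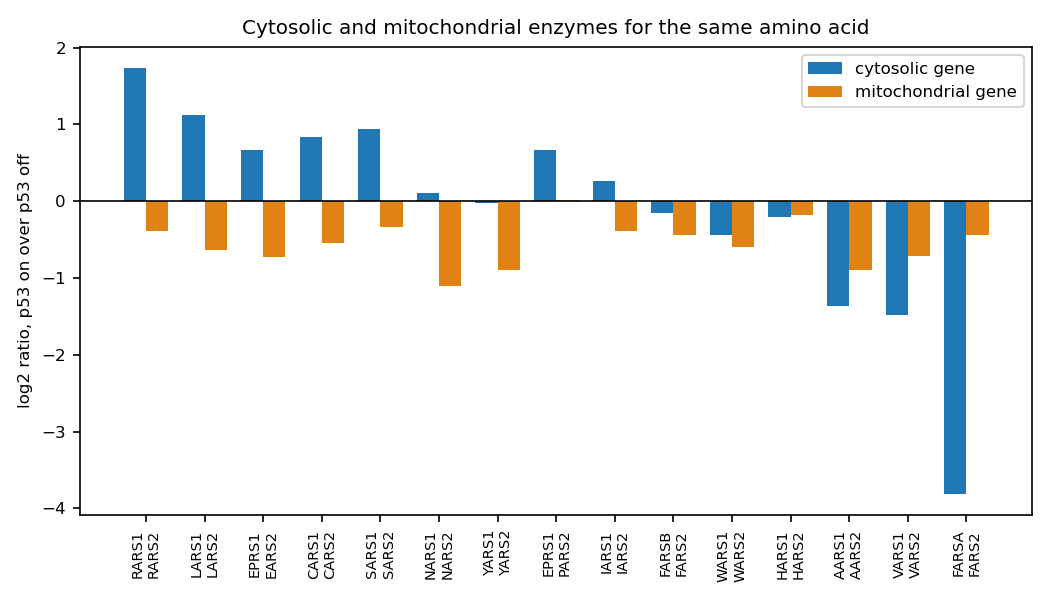
The log2 ratio of p53 on over p53 off for the cytosolic (left bar) and mitochondrial (right bar) gene of each amino acid, ordered by their difference from arginine at 2.12 to FARSA with FARS2 at -3.38. Only the cytosolic bars reach above 0.1, and the FARSA bar is a bound.

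HARS1 and HARS2 had the smallest difference of the pairs and are also neighbours in the genome. In RefSeq's promoter table for GRCh38.p14, which matched 32 of the 37 genes, they start 85 bases apart on opposite strands of chromosome 5, at 140691370 for HARS1 on the minus strand and 140691455 for HARS2 on the plus strand. The stretch between them is shown because it lies in the promoter of both, read on the plus strand at chr5:140691365-140691460, with capitals marking the letters CCGGAAG on either strand, as bound by ETS factors.
HARS1 to HARS2: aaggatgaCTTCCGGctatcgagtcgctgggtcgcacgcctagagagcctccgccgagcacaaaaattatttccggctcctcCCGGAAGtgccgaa
HARS1 read 3251.4 with p53 on and 3743.4 with p53 off, and HARS2 561.12 with p53 on and 634.13 with p53 off, so both were 1.13-fold to 1.15-fold lower. The other measured genes that start within 1000 bases of a member and point away from it ranged from near to far in ratio. EARS2 and UBFD1, 352 bases apart, were at -0.73 and -0.76, and FARS2 and LYRM4, 57 bases apart, at -0.44 and -0.27. RARS2, at -0.39, starts 148 bases from ORC3, an origin recognition gene, at -0.85. SARS2, at -0.34, starts 181 bases from MRPS12, a mitochondrial ribosomal protein gene, at -2.28. KARS1 and WARS1 had neighbours on the other side of 0: TERF2IP, a telomere protein gene 108 bases from KARS1, was at -1.28 against 0.63, and WDR25, 158 bases from WARS1, at 0.45 against -0.44.

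The core letters of the amino acid response element, TGATGNAA, were searched on both strands from 250 bases before to 50 bases after each listed start. They were in the promoters of 7 of 16 cytosolic genes with an entry, 1 of 14 mitochondrial genes and 3.60% of 15843 protein-coding genes. Windows of AARS1, CARS1, GARS1, NARS1 and TARS1 are shown because the letters were found in more cytosolic than mitochondrial genes, with the match in capitals and each read 5' to 3' on the gene's strand (GRCh38.p14).
AARS1, chr16:70289671-70289708, minus strand: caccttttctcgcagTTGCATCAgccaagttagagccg
CARS1, chr11:3057403-3057440, minus strand: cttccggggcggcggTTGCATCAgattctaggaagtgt
GARS1, chr7:30594830-30594867, plus strand: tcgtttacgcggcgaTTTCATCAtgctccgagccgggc
NARS1, chr18:57621800-57621837, minus strand: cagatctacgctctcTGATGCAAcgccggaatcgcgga
TARS1, chr5:33440952-33440989, plus strand: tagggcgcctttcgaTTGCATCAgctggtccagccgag
The mitochondrial gene with a match was YARS2, at -0.90. Cytosolic genes with the letters had a median log2 ratio of 0.32 over 6 measured genes, of which AARS1, at -1.36, was the exception below 0. Those without had 0.24 over 8 measured genes, with a range from -3.81 to 1.73. A log2 ratio above 0 was found in 5 of the 6 with the letters and 4 of the 8 without, while 49.8% of all measured genes were below 0. LARS1 (1.12), VARS1 (-1.48) and YARS1 (-0.02) had no promoter entry and are in neither group. MARS1 holds the letters but has no probe set of its own, and its brightest shared probe set was at -0.33. A link between the letters and the ratios was not tested.

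MARS2 held the 3 other motifs searched, more kinds than any other promoter listed for the set, and its promoter is therefore shown whole at chr2:197705119-197705418 on the plus strand (GRCh38.p14). Capitals mark GCGCANGCG, letters bound by NRF1, a regulator of nuclear genes for mitochondria, CCGGAAG, and the E-box CACGTG, on either strand. The second GCGCANGCG match overlaps a match on the other strand.
MARS2: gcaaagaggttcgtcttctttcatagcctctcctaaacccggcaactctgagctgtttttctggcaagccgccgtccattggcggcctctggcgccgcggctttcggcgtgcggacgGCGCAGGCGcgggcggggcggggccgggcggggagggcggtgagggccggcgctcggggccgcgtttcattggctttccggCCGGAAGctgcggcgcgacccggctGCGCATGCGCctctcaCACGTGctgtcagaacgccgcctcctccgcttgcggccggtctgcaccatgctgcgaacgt
GCGCANGCG was in 3 of 16 cytosolic genes (FARSB, SARS1 and TARS1), 3 of 14 mitochondrial genes (IARS2, MARS2 and PARS2) and 12.5% of protein-coding genes. CCGGAAG was in 9 of 16 cytosolic genes, 7 of 14 mitochondrial genes and 16.5% of protein-coding genes. CACGTG was in 1 of 16 cytosolic genes, 3 of 14 mitochondrial genes and 10.9% of protein-coding genes. Matches are descriptions of letters and not sites shown to be bound.

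Other genes of mitochondrial translation were described from lists, beside the 25.9% of all measured genes past 1.5-fold in each direction. Mitochondria have no glutaminyl-tRNA synthetase of their own in human cells, and a glutamyl amidotransferase corrects what EARS2 charges. Of the 4 genes for this amidation and for formylation of the initiator tRNA, 2 were at least 1.5-fold lower: GATB, 2.22-fold lower at 380.51 with p53 on and 844.56 with p53 off, and QRSL1, 1.97-fold lower at 836.37 with p53 on and 1649.5 with p53 off. Both also had a probe set in the other direction, with highest log2 ratios of 1.14 for GATB and 0.87 for QRSL1. MTFMT, the formyltransferase, was at -0.57. Of 10 measured mitochondrial translation factors, 4 were lower and 2 higher by 1.5-fold or more (median -0.52). MTRF1, a release factor relative, was 2.66-fold lower and TSFM, an elongation factor, 1.85-fold lower (its second probe set was at -0.39), while GUF1, a mitochondrial GTPase, was 3.11-fold higher.

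Genes on the lists for tRNA maturation and RNA polymerase III were lower more often than not. For comparison, 25.9% of all measured genes were at least 1.5-fold lower and 25.9% higher. Of 33 measured genes for tRNA maturation, modification and export, 18 were lower and 1 was higher by 1.5-fold or more (median -0.66). TSEN54, a subunit of the tRNA splicing endonuclease, read 399.33 with p53 on and 1562.4 with p53 off, 3.91-fold lower, and its highest probe set was at -0.13. POP7, of ribonuclease P, was 3.43-fold lower, and THG1L, which adds the guanosine that marks histidine tRNA, 3.30-fold lower. Of 18 measured genes of RNA polymerase III, 9 were lower and 3 higher by 1.5-fold or more (median -0.64). MAF1, the repressor of this polymerase, is counted among the 9 lower genes and in the median, and was 4.41-fold lower. GTF3C1, a TFIIIC subunit, was 3.41-fold lower, and BDP1, of TFIIIB, 3.81-fold higher.

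The cytosolic translation factors were described in the same way, beside the 25.9% of all measured genes past 1.5-fold in each direction. Of 30 initiation factor genes, 9 were lower and 1 was higher by 1.5-fold or more (median -0.29). EIF4E, the cap-binding factor, was 3.58-fold lower (its highest probe set was at -0.42), EIF2B4 and EIF2B3, of the exchange factor for eIF2, 2.78-fold and 2.54-fold lower. Of 8 elongation and termination factor genes, 3 were higher and 3 lower by 1.5-fold or more (median -0.32). EEF1A1, which carries charged tRNA to the ribosome, read 70651 with p53 on and 32812 with p53 off, 2.15-fold higher, with its other probe sets down to 0.13. EIF5A was 2.89-fold and ETF1, the release factor, 2.82-fold lower, with their highest probe sets at -0.59 and -0.32.

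**Figure D4:**
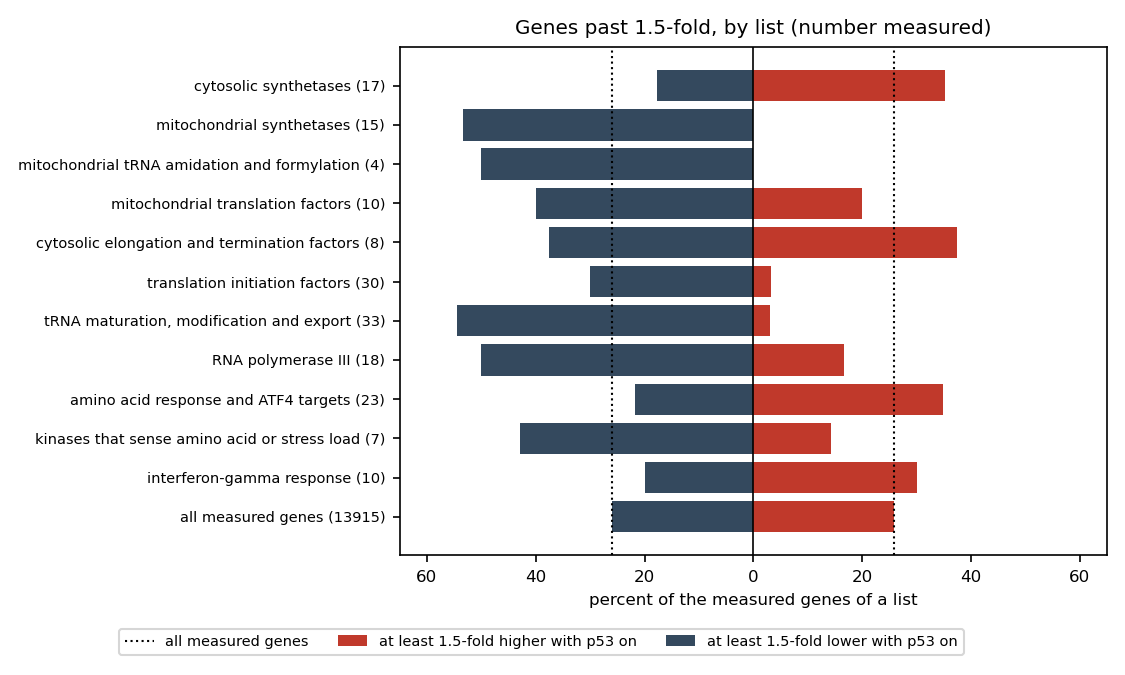
Percent of the measured genes of each list that were at least 1.5-fold higher with p53 on (right) or lower (left), with the number measured in brackets and the 25.9% of all measured genes dotted. The mitochondrial synthetases and the amidation list have no bar on the right, and the tRNA maturation list has the longest bar on the left.

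Genes on the list for the amino acid response lay on both sides. Of 23 measured, 8 were higher and 5 lower by 1.5-fold or more (median 0.34), against 25.9% of all measured genes in each direction. ATF3, a stress transcription factor, was 5.88-fold higher on the brighter of its probe sets, with the other at -0.14, and CHAC1, which degrades glutathione, was 4.14-fold higher. PPP1R15A, the phosphatase subunit that reverses eIF2 phosphorylation, was 3.69-fold lower, with a second probe set at -2.73. ATF4 itself, named after its value was seen, read 10459 with p53 on and 10450 with p53 off, and ASNS, asparagine synthetase and also named after its value was seen, had a log2 ratio of 0.11. Of 7 kinases and partners that sense amino acid supply or stress, 1 was higher and 3 were lower by 1.5-fold or more. EIF2AK4, the GCN2 kinase that binds uncharged tRNA, was 3.24-fold higher on the brighter of its probe sets, with the other at -0.91, EIF2AK1, the haem-regulated kinase, was 2.12-fold lower and RPTOR, of mTORC1, at least 1.74-fold lower.

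WARS1 was set beside 15 interferon-gamma response genes, of which 10 were measured. Among these, 3 were at least 1.5-fold higher and 2 lower, against 25.9% of all measured genes in each direction. The largest measured ratios were those of TAP1, a peptide transporter, 4.92-fold higher, PSMB9, an immunoproteasome subunit, and IRF1, a transcription factor, each 4.47-fold higher, and a second probe set for IRF1 had a log2 ratio of 4.04. ICAM1, an adhesion molecule named after its value was seen, had a log2 ratio of -2.13, a bound. WARS1, at -0.44 and -0.78 on its probe sets, was below 0, as were 4 of the 10 and 49.8% of all measured genes.

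By catalytic fold, class I enzymes had a median log2 ratio of -0.50 over 16 measured genes and class II enzymes of -0.18 over 15, with 3 and 2 genes at least 1.5-fold higher and 7 and 4 at least 1.5-fold lower. Over all measured genes the share was 25.9% in each direction. EPRS1 holds a domain of each class and was left out. Both classes hold genes of both compartments, and neither was all on 1 side of 0.

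**Figure D5:**
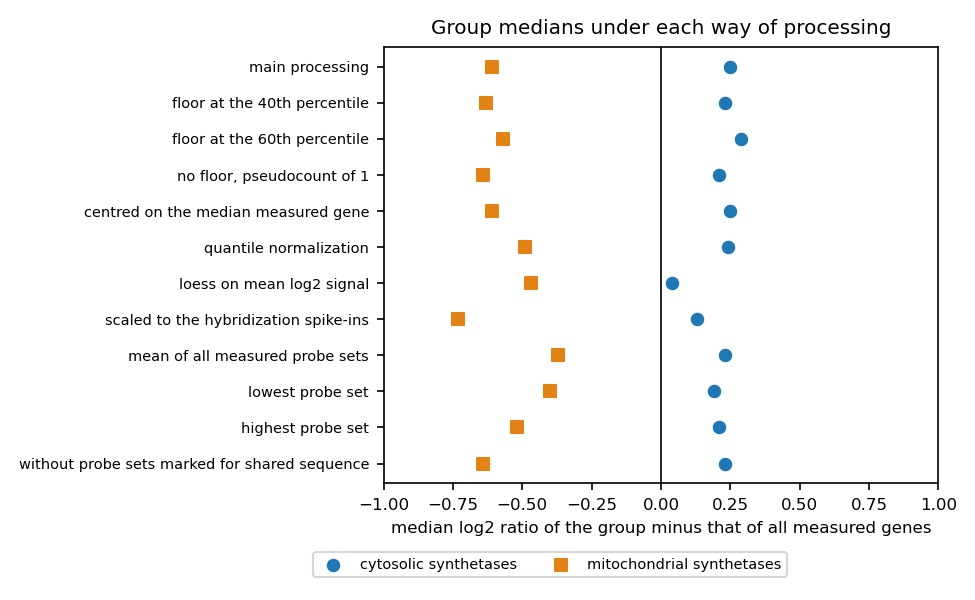
Median log2 ratio of the cytosolic (circles) and mitochondrial (squares) synthetases minus that of all measured genes, under each way of processing. The cytosolic median lay 0.04 to 0.29 above that of all genes in every setting shown, and the mitochondrial one below it, at -0.37 to -0.73.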

How the data were processed

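The deposited values are signal intensities, 1 per probe set on a linear scale, and the submitters' processing notes name MAS5. No version of it was given in the sources used here, and no settings. The 2 arrays have equal trimmed means. No further normalization was added. Arrays have no read depth, and their number limits the precision.

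Of 54613 probe sets that were not controls, 41091 named 1 gene in the platform annotation, and older symbols were replaced by RefSeq's through the Entrez ID (GRCh38.p14). The floor was the 50th percentile of signals. Genes were counted at 1.5-fold, without tests. All members are named, and of each other list the 3 genes with the largest absolute log2 ratio. Members and lists were chosen with earlier results of these data known. The motifs GCGCANGCG and CCGGAAG, the search for neighbours and the use of probe sets shared with microRNA genes were added after the data were seen. Some promoter windows with a match are not reported here. Ratio code was run on p53 off signals multiplied by known folds, with and without added noise. That run checks the arithmetic and not the ratios reported. Alternatives were other floors, a pseudocount of 1, centring, quantile normalization, loess (span 0.3), spike-in scaling and other choices of probe set. Python 3.11.15, numpy 2.4.6, pandas 2.3.3 and statsmodels 0.14.6 were used.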

Additional observations from a re-analysis of the deposited data

How the results depend on the processing

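Of 100 recomputed group values, 88 stayed within the interval of the value reported, or within 1.5 times of a count. The interval, of 95%, was drawn from the spread of the member genes and measures no spread between arrays. For the cytosolic median it ran from -0.20 to 0.67. Other floors, the pseudocount and centring changed the group values little or not at all, so this count is no measure of stability. Spike-in scaling moved the median of all measured genes to -0.80, the cytosolic median to -0.66 and the mitochondrial one to -1.52. With it, 1 cytosolic gene was at least 1.5-fold higher (9.55% of all measured genes were). In that setting 9 cytosolic and 15 mitochondrial genes were lower by that much, as were 58.7% of all. After loess, 3 mitochondrial genes were at least 1.5-fold lower (23.1% of all). On the mean of all measured probe sets, 3 cytosolic genes were higher (22.6% of all) and 5 mitochondrial genes lower (23.5% of all). On the lowest probe set, 2 cytosolic genes were higher (17.6% of all). The cytosolic median was -0.02 on the lowest probe set and 0.08 after loess. On the highest probe set, the mitochondrial median was -0.34, with 5 genes lower (17.4% of all) and 1 higher (31.5% of all). Of the genes at least 1.5-fold higher or lower, those that changed sign were CARS1 (-0.08), EPRS1 (-0.25) and KARS1 (-0.29) after spike-in scaling, EPRS1 (-0.20) and KARS1 (-0.16) on their lowest probe set, and EARS2 (0.38) on its highest. Of the genes under 1.5-fold, TARS1 (-0.49), GARS1 (-0.53), IARS1 (-0.66), NARS1 (-0.81) and PARS2 (-0.91) were below 0 after spike-in scaling. On their highest probe set CARS2 (1.40, and 0.42 on the mean), FARS2 (0.33), YARS1 (0.45) and AIMP1 (0.05) were above 0. NARS1, YARS1, HARS2 and PARS2, all within 0.2 of 0, also changed sign under quantile normalization or loess. The cause was not tested. With MARS1, QARS1 and TARS2 added from shared probe sets, an alternative chosen after seeing the data, the medians were 0.11 over 19 cytosolic and -0.61 over 16 mitochondrial genes. No paired analysis was possible because each condition has 1 array. No array could be left out.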

Other observations

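The probe sets that name a member together with a microRNA gene were kept out of the counts and medians of the report, apart from the alternative that adds them. MARS1, the cytosolic methionyl-tRNA synthetase, had 3 of them, at 1341.3, 2660.7 and 109.91 with p53 on and 3451.6, 3340.8 and 149.28 with p53 off, and all were lower with p53 on, by log2 ratios of -1.36, -0.33 and -0.44. QARS1, for glutamine, read 9072.9 with p53 on and 9695.0 with p53 off. TARS2, the mitochondrial threonyl-tRNA synthetase, read 333.18 with p53 on and 510.58 with p53 off, a log2 ratio of -0.62, which lies inside the range of the 15 other mitochondrial genes.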
